A study of Mus musculus with 6 samples.

Results

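The interferon regulatory factors (IRFs) are transcription factors that share an amino-terminal DNA-binding domain and recognise interferon-stimulated response elements in the promoters of antiviral and antigen presentation genes. Their messenger RNAs were followed in dendritic cells lacking CD8 that were isolated by flow cytometry from spleens of mice. The members were taken by name and Entrez gene ID as Irf1, Irf2, Irf3, Irf4, Irf5, Irf7, Irf8 and Irf9, which makes 8 of the 27179 genes in the count table. All 8 passed the filter on low counts, as did 11602 genes in all. The remaining member of the family was not analysed here.

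The CpG-pretreated group comprised 3 libraries of cells from C57BL/6 mice labelled as pretreated with CpG, a DNA ligand of Toll-like receptor 9, and the untreated group comprised 3 libraries of cells from C57BL/6 mice labelled as untreated. Both groups carry the library numbers 2, 3 and 4. The title places the cells after a systemic inflammatory syndrome and calls them paralysed, so the comparison asks how earlier exposure to CpG altered the transcriptome of these cells. The cells were lysed directly after sorting, without culture. The design text calls the libraries biological replicates. Age, sex, CpG dose, route, timing and any pooling of animals were not stated in the labels used here.

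Total counts per library lay between 7989245 and 8111975 in CpG-pretreated cells and between 7855500 and 8228140 in untreated cells. The dendritic cell gene Itgax, which encodes CD11c, lay between 1812 and 2080 CPM (counts scaled to the normalized total of each library) in CpG-pretreated libraries and between 2075 and 2275 CPM in the untreated ones. The T cell receptor subunit gene Cd3e was under 1 CPM in every library. Of the 9 T cell markers 3 were tested, and Tcf7 was called lower (edgeR adjusted p = 0.0438). The list summed to between 375 and 538 CPM in the CpG-pretreated libraries and between 601 and 620 CPM in the untreated ones. Most of that sum was Cd4, also one of the type 2 conventional dendritic cell markers below, so the sum does not measure T cells alone. Erythroid marker transcripts, of which 6 of 9 tested were called higher (4 with the library number as a block), summed to 1435, 1321 and 329 CPM in the CpG-pretreated libraries 2, 3 and 4, compared with 53.0, 144 and 53.1 CPM in the untreated libraries 2, 3 and 4. Hba-a1 was listed at 0 in every library. Red pulp macrophage markers, of which 5 of 16 tested were called lower (11 with the block), summed to between 409 and 552 CPM in the CpG-pretreated libraries and between 645 and 813 CPM in the untreated ones. The largest part of that sum was Adgre1, which was not called (edgeR adjusted p = 0.559). It was at 302 ± 48.9 CPM in CpG-pretreated and 352 ± 21.2 CPM in untreated cells (SD, n = 3 each). Over all genes tested 0.474% were called higher and 0.5% lower, and 4.73% and 3.78% with the block. The part of T cells, erythroid cells and red pulp macrophages in the results below was not tested.

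IRF proteins divide the work of the interferon response. IRF3 is made constitutively and is activated by phosphorylation, while IRF7, itself encoded by an interferon-inducible gene, amplifies type I interferon production, and IRF5 acts downstream of the adaptor MyD88. IRF9 is the DNA-binding subunit of ISGF3, the complex that carries the type I interferon signal. IRF1 activates many interferon-gamma targets, and IRF2 competes for its sites. IRF4 and IRF8 are lineage factors of dendritic cells, IRF4 for the conventional type 2 cells that make up most of the CD8-negative population and IRF8 for type 1 conventional and plasmacytoid dendritic cells.

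Promoter sequence is shown for the 3 members whose RefSeq window held a match to a motif of these pathways. Each run gives the 250 bases before the annotated start (GRCm38.p6, plus strand, 5′ to 3′), with the matched letters in capitals. For Irf1 the capitals mark one gamma-activated site (GAS, the letters TTC, 3 bases of any kind and GAA), an element of interferon-gamma target promoters. For Irf8 they mark 2 GAS matches. For Irf2 they mark an ETS-IRF composite element (GGAA, 2 bases of any kind and GAAA) that overlaps an interferon-stimulated response element (ISRE-like, GAAA, 2 bases of any kind and GAAA), followed by a GAS match.
Irf1, chr11:53769764-53770013: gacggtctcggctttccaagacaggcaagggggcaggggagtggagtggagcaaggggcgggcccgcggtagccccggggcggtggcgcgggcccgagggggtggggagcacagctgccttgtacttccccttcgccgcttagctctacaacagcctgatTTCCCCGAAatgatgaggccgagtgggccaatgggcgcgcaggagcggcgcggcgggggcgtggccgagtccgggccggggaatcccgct
Irf8, chr8:120736108-120736357: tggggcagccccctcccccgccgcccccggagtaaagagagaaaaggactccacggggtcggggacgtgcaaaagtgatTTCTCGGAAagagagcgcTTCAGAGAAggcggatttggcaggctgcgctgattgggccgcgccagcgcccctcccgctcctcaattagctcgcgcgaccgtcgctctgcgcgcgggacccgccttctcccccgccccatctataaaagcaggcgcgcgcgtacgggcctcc
Irf2, chr8:46739495-46739744: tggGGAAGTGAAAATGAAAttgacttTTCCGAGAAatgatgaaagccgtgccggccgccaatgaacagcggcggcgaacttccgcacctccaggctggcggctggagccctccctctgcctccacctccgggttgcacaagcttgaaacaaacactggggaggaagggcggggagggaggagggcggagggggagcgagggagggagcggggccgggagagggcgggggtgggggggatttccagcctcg

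The Irf1 match began at position -90 and the Irf8 matches at positions -171 and -153, counted in bases relative to the start. All 8 members had at least one window of 300 bases in the RefSeq table (250 before to 50 after a start), 11 windows in all, and both strands were searched. GAS letters were in 3 of these 11 windows and in 8.30% of all 32851 windows. ISRE-like letters were in 1 of the 11 and in 3.44% of all, and ETS-IRF letters were in 1 and in 2.72%. The NF-kappaB letters (GGGA, 1 base of any kind and TTTCC) were in 0 of the 11 and in 0.411% of all windows. These are matches of letters in one window per start, and binding was not measured.

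After CpG pretreatment the values differed from member to member. Irf8, Irf7 and Irf1 had the highest fold changes, at 1.73-fold, 1.46-fold and 1.45-fold, Irf4 stood at 0.786-fold, and Irf2, Irf3, Irf5 and Irf9 lay between 0.895-fold and 1.10-fold. By edgeR's quasi-likelihood test over all genes, 0 of the 8 members were called at an adjusted p under 0.05, where 0.974% of all genes tested were (0.474% higher and 0.5% lower). At an unadjusted p under 0.05 there were 4 members, where 12.8% of all genes passed. These were Irf1, Irf7 and Irf8 among the higher genes (6.64% of all) and Irf4 among the lower ones (6.16% of all). With the library number as a block, Irf1 and Irf8 rose, 2 of 8 members, where 8.52% of all genes were called, 4.73% higher and 3.78% lower. In 4 members no library of one group lay within the range of the other, against 18.7% of all genes tested. Irf1 and Irf9 were the higher ones (9.2% of all genes) and Irf4 and Irf5 the lower ones (9.47%). A log2 fold change above 0.5 in size was seen in 3 members, Irf1, Irf7 and Irf8, and in 10.5% of all genes tested. The median log2 fold change of the members was 0.12, beside -0.0054 over all genes tested. In bulk RNA a change in the number of cells of a type and a change in RNA per cell cannot be told apart.

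**Figure D1:**
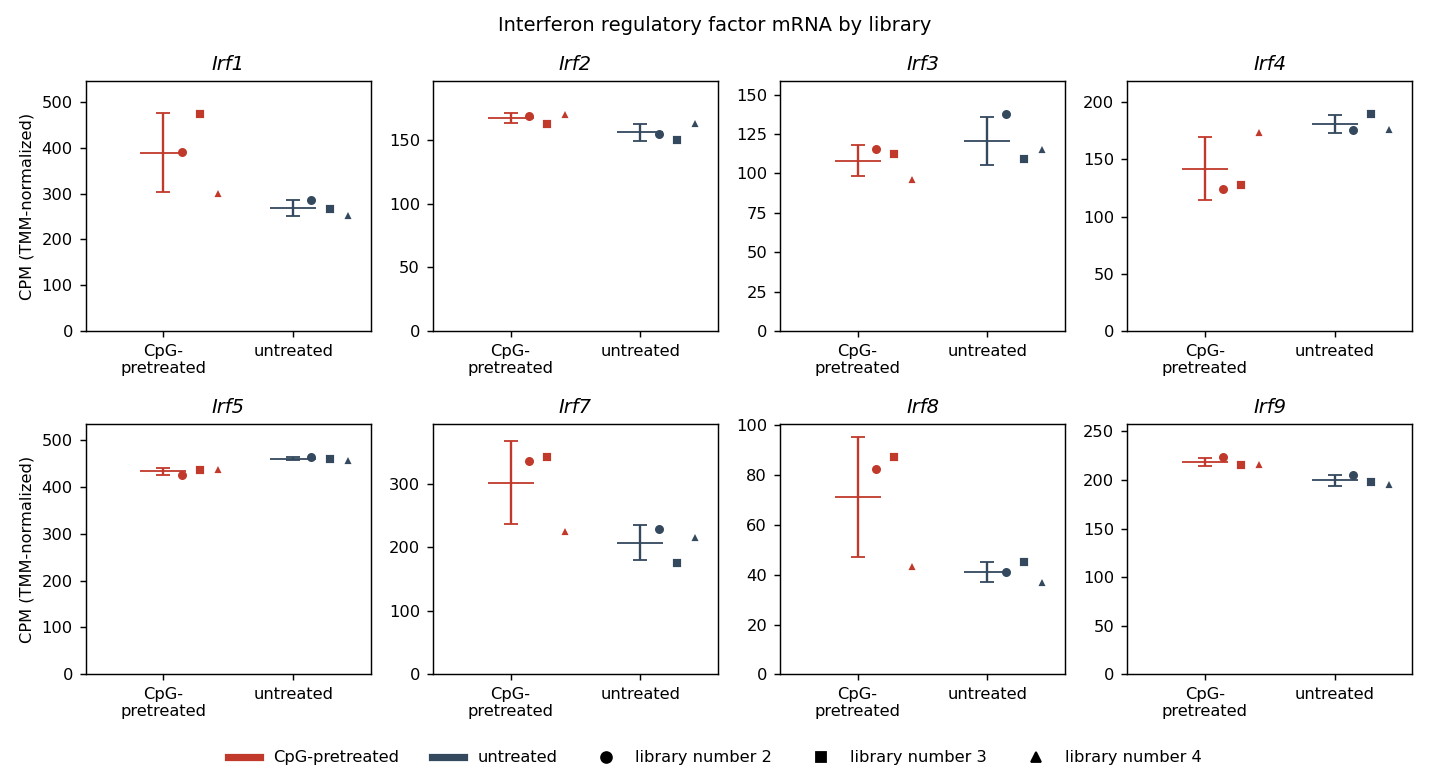
CPM (TMM-normalized, vertical axis from 0) of each member in the 3 CpG-pretreated libraries (left, red) and the 3 untreated libraries (right, grey-blue); symbols give the library number, horizontal lines the group mean and bars ± 1 SD. CpG-pretreated library 4 lies near the untreated libraries for Irf4, Irf7 and Irf8, at 174, 226 and 43.6 CPM.

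Levels were compared between members as CPM per kilobase of gene length (RPKM). In CpG-pretreated cells the order was Irf5 at 181 ± 2.97, Irf7 at 162 ± 35.3, Irf1 at 116 ± 25.6, Irf9 at 81.4 ± 1.64, Irf2 at 67.3 ± 1.71, Irf3 at 49.4 ± 4.57, Irf4 at 30.3 ± 5.93 and Irf8 at 25.1 ± 8.47 RPKM (SD, n = 3). In untreated cells the order was the same, with Irf5 at 192 ± 1.51, Irf7 at 111 ± 14.9, Irf1 at 79.9 ± 5.24, Irf9 at 74.3 ± 1.97, Irf2 at 62.8 ± 2.73, Irf3 at 55.2 ± 6.91, Irf4 at 38.6 ± 1.71 and Irf8 at 14.5 ± 1.39 RPKM (SD, n = 3). Irf5 was therefore the most abundant IRF messenger RNA by mean in both groups and Irf8 the least. Libraries of neighbours in this order overlapped in CpG-pretreated cells for Irf5 and Irf7, Irf7 and Irf1, and Irf4 and Irf8. In untreated cells they overlapped for Irf1 and Irf9 and for Irf2 and Irf3. The RPKM values of the 8 members summed to 734, 762 and 640 in CpG-pretreated libraries 2, 3 and 4 and to 656, 605 and 624 in untreated libraries 2, 3 and 4. CpG-pretreated library 4 lay within the range of the untreated sums, and the other two above it.

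Irf8 (Entrez 15900; GRCm38 chromosome 8, 120736358 to 120756694), the lineage factor of type 1 conventional and plasmacytoid dendritic cells, was at 82.5, 87.2 and 43.6 CPM in the CpG-pretreated libraries 2, 3 and 4, compared with 41.2, 44.9 and 37.0 CPM in the untreated libraries 2, 3 and 4. CpG-pretreated libraries 2 and 3 stood apart from the other 4, while CpG-pretreated library 4 was below untreated library 3, so the groups overlapped. The log2 fold change was 0.79 (SE 0.24, 95% confidence interval 0.25 to 1.34, edgeR adjusted p = 0.179), and 0.75 with the block (SE 0.15, adjusted p = 0.0185). The same-numbered libraries differed by 1.004, 0.96 and 0.24 on the log2 scale for numbers 2, 3 and 4.

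Markers of the cells known for Irf8 were set beside it. Of 9 tested markers of type 1 conventional dendritic cells, 0 were called by edgeR and 6 had a log2 fold change above 0. With the block 3 were called higher, where 4.73% of all genes tested were. The sum of the list lay between 2050 and 2732 CPM in the CpG-pretreated libraries and between 1764 and 2909 CPM in the untreated ones. Most of that sum was Wdfy4, at 2219 ± 385 CPM in CpG-pretreated and 2295 ± 656 CPM in untreated cells (SD, n = 3 each), while the median log2 fold change of the list was 0.53. The markers that rose with the block were Xcr1, Tlr3 and Itgae (edgeR adjusted p = 0.00474, 0.00286 and 0.0213). The chemokine receptor gene Xcr1, a defining marker of those cells, was at 9.20, 14.6 and 4.66 CPM in the CpG-pretreated libraries 2, 3 and 4, compared with 3.81, 4.63 and 3.32 CPM in the untreated ones. Clec9a, their receptor for dead cells, was at 19.3, 25.6 and 17.1 CPM in the CpG-pretreated libraries and at 17.2, 19.9 and 24.3 CPM in the untreated ones. Xcr1 had its 2 highest values in the same libraries as Irf8, and Clec9a overlapped between the groups. The plasmacytoid list (0 of 6 tested members called, 0 with the block) summed to between 288 and 320 CPM in the CpG-pretreated libraries and between 258 and 261 CPM in the untreated ones, with its defining gene Siglech at no more than 2.21 CPM in any library. Most of that sum was Spib, Tcf4 and Bst2, at means of 162, 68.5 and 64.8 CPM in CpG-pretreated and 136, 69.2 and 45.2 CPM in untreated cells. Bst2 is also in the list of ISGF3 and IRF7 targets below. In the B cell list 0 of 6 were called by edgeR, and 2 were lower with the block, where 3.78% of all genes tested were. It summed to between 62.2 and 83.8 CPM in the CpG-pretreated libraries and between 79.0 and 101 CPM in the untreated ones. The part of these cells in the Irf8 values was not tested.

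Irf4 (Entrez 16364; chromosome 13, 30749233 to 30766981), the lineage factor of type 2 conventional dendritic cells, had a log2 fold change of the opposite sign. It was at 124, 128 and 174 CPM in the CpG-pretreated libraries 2, 3 and 4, compared with 175, 190 and 177 CPM in the untreated libraries 2, 3 and 4. Every CpG-pretreated library was below every untreated one, library 4 by the narrowest margin. The log2 fold change was -0.35 (SE 0.14, 95% confidence interval -0.67 to -0.03, edgeR adjusted p = 0.338), and -0.36 with the block (adjusted p = 0.0515). Among markers of type 2 conventional dendritic cells, Esam was the 1 of 10 called lower, where 0.5% of all genes tested were. With the block 5 of 10 were lower, where 3.78% of all genes were. The sum of the list lay between 2798 and 3633 CPM in the CpG-pretreated libraries and between 3418 and 3705 CPM in the untreated ones. Plasma cells also express Irf4. Their list (0 of 5 tested members called) summed to between 159 and 256 CPM in the CpG-pretreated libraries and between 171 and 215 CPM in the untreated ones. Most of that sum was Xbp1, at 139 ± 20.7 CPM in CpG-pretreated and 145 ± 20.2 CPM in untreated cells (SD, n = 3 each). Jchain was at 58.7 ± 44.1 CPM in CpG-pretreated and 30.8 ± 10.6 CPM in untreated cells (edgeR adjusted p = 0.522). The part of these cells in the Irf4 values was not tested.

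Within a library the ratio of Irf8 to Irf4 does not depend on the scaling between libraries. Taken from RPKM, it was 1.10, 1.13 and 0.415 in CpG-pretreated libraries 2, 3 and 4, compared with 0.389, 0.391 and 0.347 in untreated libraries 2, 3 and 4. The groups did not overlap, with CpG-pretreated library 4 just above the untreated ones. On the log2 scale the mean difference was 1.10 (two-sided exact permutation p = 0.10, adjusted p = 0.15 over 3 ratios). The smallest p that 3 against 3 libraries can give is 0.10.

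**Figure D2:**
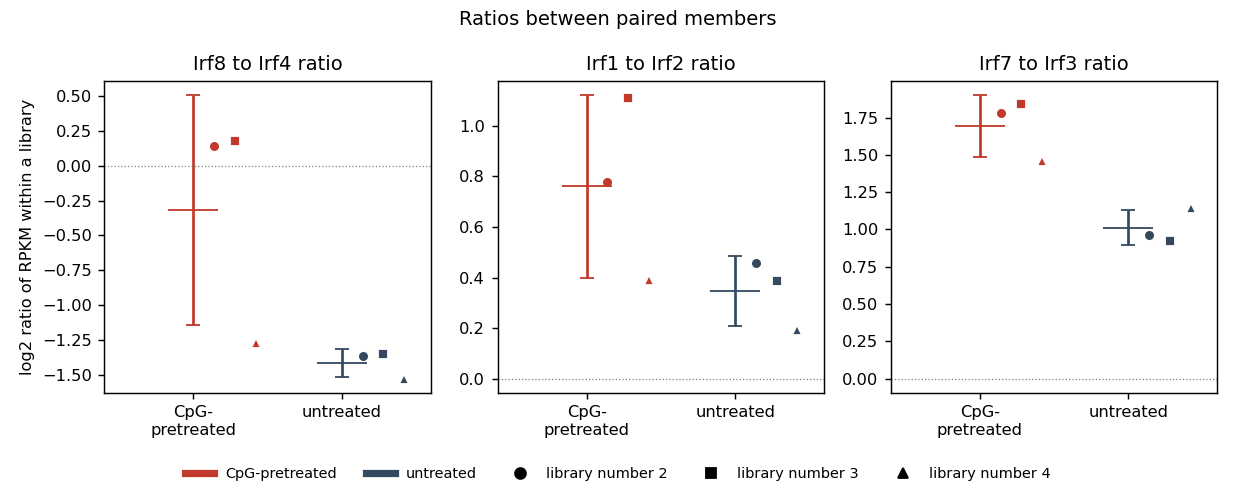
Log2 ratio of RPKM between members within each library (vertical axis) for CpG-pretreated (left, red) and untreated (right, grey-blue) libraries, with symbols for the library number, group means and ± 1 SD bars. The Irf8 to Irf4 and Irf7 to Irf3 ratios are higher in every CpG-pretreated library than in any untreated one, by 1.10 and 0.68 on average, and the Irf1 to Irf2 ratios overlap.

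Irf1 (Entrez 16362; chromosome 11, 53770014 to 53778374), an activator of interferon-gamma targets, was at 391, 474 and 302 CPM in the CpG-pretreated libraries 2, 3 and 4, compared with 287, 265 and 252 CPM in the untreated libraries 2, 3 and 4. The groups did not overlap, and library 4 was again the lowest of the CpG-pretreated libraries. The log2 fold change was 0.54 (SE 0.16, 95% confidence interval 0.18 to 0.90, edgeR adjusted p = 0.175), and 0.52 with the block (SE 0.10, adjusted p = 0.00845). It was higher in 3 of 3 same-numbered pairs, by 0.45, 0.84 and 0.26 on the log2 scale.

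Irf2 (Entrez 16363; chromosome 8, 46739745 to 46847458), the competitor of Irf1 at its sites, was at 168, 162 and 171 CPM in the CpG-pretreated libraries 2, 3 and 4, compared with 154, 150 and 163 CPM in the untreated ones. The groups overlapped by a narrow margin. Its log2 fold change was 0.10 (SE 0.09, 95% confidence interval -0.10 to 0.30, edgeR adjusted p = 0.762). The ratio of Irf1 to Irf2 was 1.72, 2.16 and 1.31 in CpG-pretreated libraries 2, 3 and 4 and 1.37, 1.31 and 1.14 in untreated ones, a mean log2 difference of 0.41 (two-sided exact permutation p = 0.20, adjusted p = 0.20).

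Irf7 (Entrez 54123; chromosome 7, 141263183 to 141266499), the interferon-induced amplifier, was at 336, 342 and 226 CPM in the CpG-pretreated libraries 2, 3 and 4, compared with 229, 176 and 217 CPM in the untreated libraries 2, 3 and 4. CpG-pretreated libraries 2 and 3 were above the other 4, and CpG-pretreated library 4 lay among the untreated ones. The log2 fold change was 0.54 (SE 0.17, 95% confidence interval 0.14 to 0.94, edgeR adjusted p = 0.219), and it was not called with the block (adjusted p = 0.171). The same-numbered differences were 0.56, 0.96 and 0.06 on the log2 scale for numbers 2, 3 and 4, and the 95% counting interval for number 4 reached from -0.04 to 0.15.

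Irf3 (Entrez 54131; chromosome 7, 44997648 to 45002848), the constitutive partner of Irf7, was at 115, 112 and 96.7 CPM in the CpG-pretreated libraries 2, 3 and 4, compared with 138, 109 and 115 CPM in the untreated ones. The groups overlapped, and the log2 fold change was -0.16 (SE 0.12, 95% confidence interval -0.44 to 0.12, edgeR adjusted p = 0.712). The ratio of Irf7 to Irf3 was 3.43, 3.59 and 2.75 in CpG-pretreated libraries 2, 3 and 4, compared with 1.95, 1.90 and 2.21 in untreated ones. The groups did not overlap in this ratio, the mean log2 difference being 0.68 (two-sided exact permutation p = 0.10, adjusted p = 0.15).

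Irf5 (Entrez 27056; chromosome 6, 29526130 to 29541869), which acts downstream of MyD88, varied least among libraries of a group. It was at 424, 435 and 437 CPM in the CpG-pretreated libraries 2, 3 and 4, compared with 463, 458 and 457 CPM in the untreated ones, so the groups did not overlap. The log2 fold change was -0.09 (SE 0.08, 95% confidence interval -0.28 to 0.10, edgeR adjusted p = 0.787). Irf5 was not called with the block either (adjusted p = 0.534).

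Irf9 (Entrez 16391; chromosome 14, 55603985 to 55610030), the DNA-binding subunit of ISGF3, was at 224, 216 and 217 CPM in the CpG-pretreated libraries 2, 3 and 4, compared with 206, 198 and 195 CPM in the untreated ones. The groups did not overlap, and the log2 fold change was 0.13 (SE 0.09, 95% confidence interval -0.06 to 0.33, edgeR adjusted p = 0.630). Stat2, which encodes another subunit of ISGF3, was at 373 ± 61.8 CPM in CpG-pretreated and 303 ± 11.1 CPM in untreated cells (SD, n = 3 each), a log2 fold change of 0.30 (edgeR adjusted p = 0.360, and 0.0447 with the block).

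**Figure D3:**
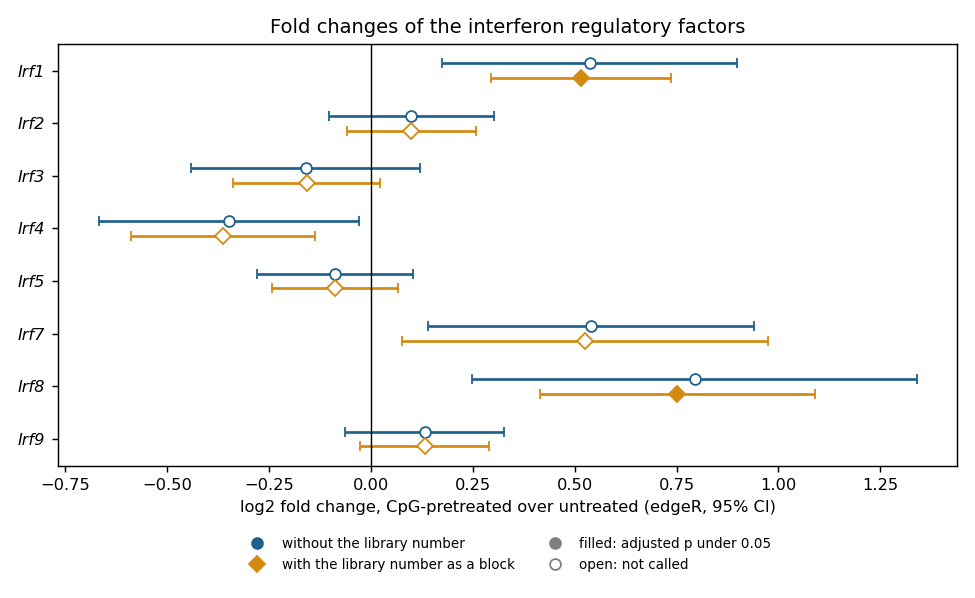
Log2 fold change of CpG-pretreated over untreated cells for each member (horizontal axis) with 95% confidence intervals from edgeR, without the library number (circles) and with it as a block (diamonds); filled symbols have an adjusted p under 0.05. Only Irf1 and Irf8 with the block are filled, at 0.52 and 0.75.

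The size of the change differed between library numbers. The members' median absolute log2 difference was 0.35 for number 2, 0.35 for number 3 and 0.11 for number 4, beside 0.21, 0.17 and 0.14 over all genes tested. Erythroid transcripts were likewise lowest in number 4 among CpG-pretreated libraries, at 329 CPM against 1435 and 1321 CPM, and their part in the IRF values was not tested. Irf9 and Irf3 did not follow this pattern, with differences of 0.12, 0.13 and 0.15 for Irf9 and of -0.26, 0.04 and -0.25 for Irf3. Without CpG-pretreated library 4, edgeR called 4 members, with 3.26% of all genes called. Irf8 rose by 1.05 (adjusted p = 0.00514), Irf7 by 0.71 (adjusted p = 0.0393) and Irf1 by 0.69 (adjusted p = 0.0307) on the log2 scale, and Irf4 fell by 0.52 (adjusted p = 0.0442). Without any other single library, 0 members were called by edgeR, with 2 to 4 members at an unadjusted p under 0.05.

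**Figure D4:**
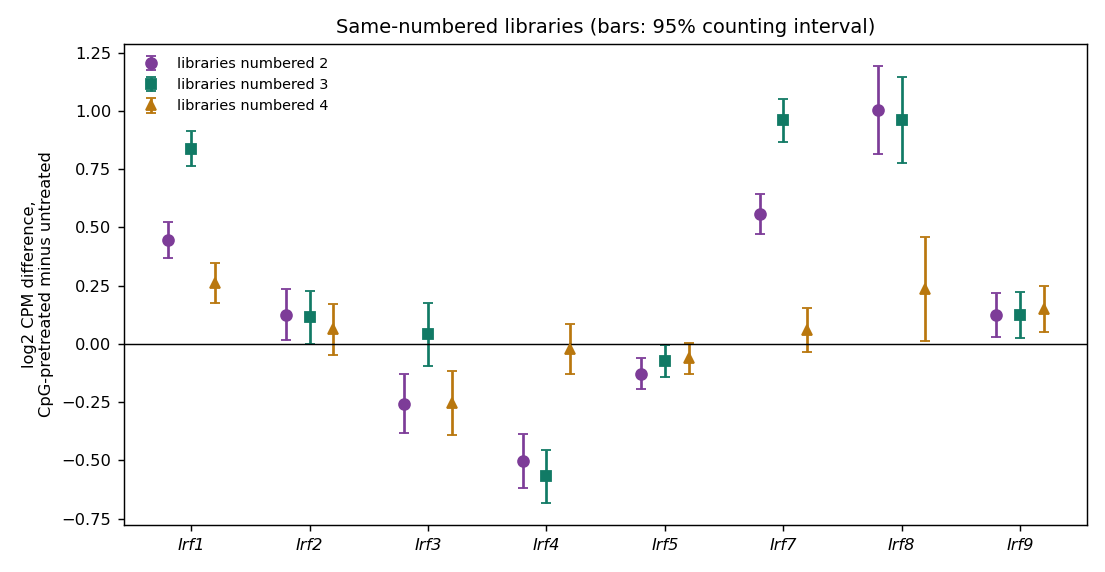
Log2 CPM difference of the CpG-pretreated minus the untreated library of the same number (vertical axis) for each member; bars are 95% intervals that cover counting error only. For Irf4, Irf7 and Irf8 the libraries numbered 4 differ by -0.02, 0.06 and 0.24, nearer 0 than those numbered 2 and 3.

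Genes that carry signals to the IRFs were followed from a list. In the list from Toll-like receptors and cytosolic sensors to the kinases of IRF3 and IRF7, 0 of 26 members were called by edgeR, with a median log2 fold change of 0.05 (-0.0054 over all genes tested). With the block 3 of 26 were called, where 8.52% of all genes tested were, a share near that background. Tlr3, the receptor for double-stranded RNA and also one of the type 1 dendritic cell markers above, and Tlr4, that for lipopolysaccharide, rose (adjusted p = 0.00286 and 0.0141), and Tlr7, that for single-stranded RNA, fell (adjusted p = 0.00248). The CpG receptor gene Tlr9 was at 211 ± 49.4 CPM in CpG-pretreated and 199 ± 45.9 CPM in untreated cells (SD, n = 3 each, edgeR adjusted p = 0.944). The kinase gene Tbk1, whose product phosphorylates IRF3 and IRF7, was at 103 ± 5.12 CPM in CpG-pretreated and 100.3 ± 0.988 CPM in untreated cells (SD, n = 3 each, edgeR adjusted p = 0.934).

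Partners and regulators of the IRFs were measured as well. Spi1, which encodes PU.1, the factor that recruits IRF4 and IRF8 to composite elements, was at 632 ± 29.6 CPM in CpG-pretreated and 619 ± 42.2 CPM in untreated cells (SD, n = 3 each, edgeR adjusted p = 0.955). Batf3, the partner of IRF8 in type 1 conventional dendritic cells, was at 75.9 ± 3.51 CPM in CpG-pretreated and 91.4 ± 23.6 CPM in untreated cells (SD, n = 3 each, edgeR adjusted p = 0.618). Of 10 regulators of IRF activity 0 were called by edgeR, with a median log2 fold change of 0.07, and with the block 1 of 10 was, a share near the 8.52% of all genes. It was Trex1, a DNA-degrading enzyme gene, which rose (adjusted p = 0.0342).

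Interferon genes themselves gave almost no reads. Of 21 type I, II and III interferon genes, 19 had 0 counts in every library, Ifnb1 among them, which allows up to 0.365 to 0.382 CPM per library (3 counts, counting error only). Ifng had 1, 1 and 0 counts in CpG-pretreated libraries 2, 3 and 4 and 0 in each untreated one, and Ifnk had 0, 1 and 0 counts in CpG-pretreated and 0, 2 and 0 in untreated libraries.

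Known targets of the IRFs were mostly higher. In the list of ISGF3 and IRF7 targets, 2 of 24 tested members rose and 0 fell by edgeR, where 0.474% and 0.5% of all genes did. With the block 10 rose, where 4.73% of all genes did. A log2 fold change above 0 was seen in 23, where 48.9% of all genes had one, and the median was 0.40. The 2 that rose without the block were Ifi44 (log2 fold change 3.02, edgeR adjusted p = 0.0379) and Oasl1 (1.04, adjusted p = 0.0388), both interferon-stimulated genes. In the list of interferon-gamma targets of IRF1 and IRF8, 1 of 19 tested members rose by edgeR, where 0.474% of all genes did. It was the GTPase gene Iigp1 (log2 fold change 6.29, edgeR adjusted p = 0.0388). With the block 10 rose, where 4.73% of all genes did. All 19 had a log2 fold change above 0, and the median was 0.83. Iigp1 was at 55.7, 116.7 and 14.5 CPM in the CpG-pretreated libraries numbered 2, 3 and 4, and at 0.369, 1.25 and 0.738 CPM in the untreated ones, with no overlap. The 10 with the block included Tap1 (adjusted p = 0.000766), which encodes a peptide transporter of the class I pathway, Nlrc5 (adjusted p = 0.00145), a regulator of class I genes, and the immunoproteasome subunit gene Psmb9 (adjusted p = 0.00272). Both lists were chosen with earlier results of these data known. Over all pathway lists 4 genes were called. That count was 0 without CpG-pretreated library 2 or 3 or untreated library 3 or 4, 2 without untreated library 2, and 23 without CpG-pretreated library 4. Summed levels of the interferon-gamma list were 4768, 5950 and 4111 CPM in the CpG-pretreated libraries 2, 3 and 4, compared with 3147, 3489 and 3480 CPM in the untreated ones. As for Irf1, Irf7 and Irf8, library 4 was the lowest of the CpG-pretreated ones. The largest part of this sum was Ciita, which overlapped between the groups. Ciita was at 1565 ± 247 CPM in CpG-pretreated and 1384 ± 331 CPM in untreated cells (SD, n = 3 each, edgeR adjusted p = 0.821).

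**Figure D5:**
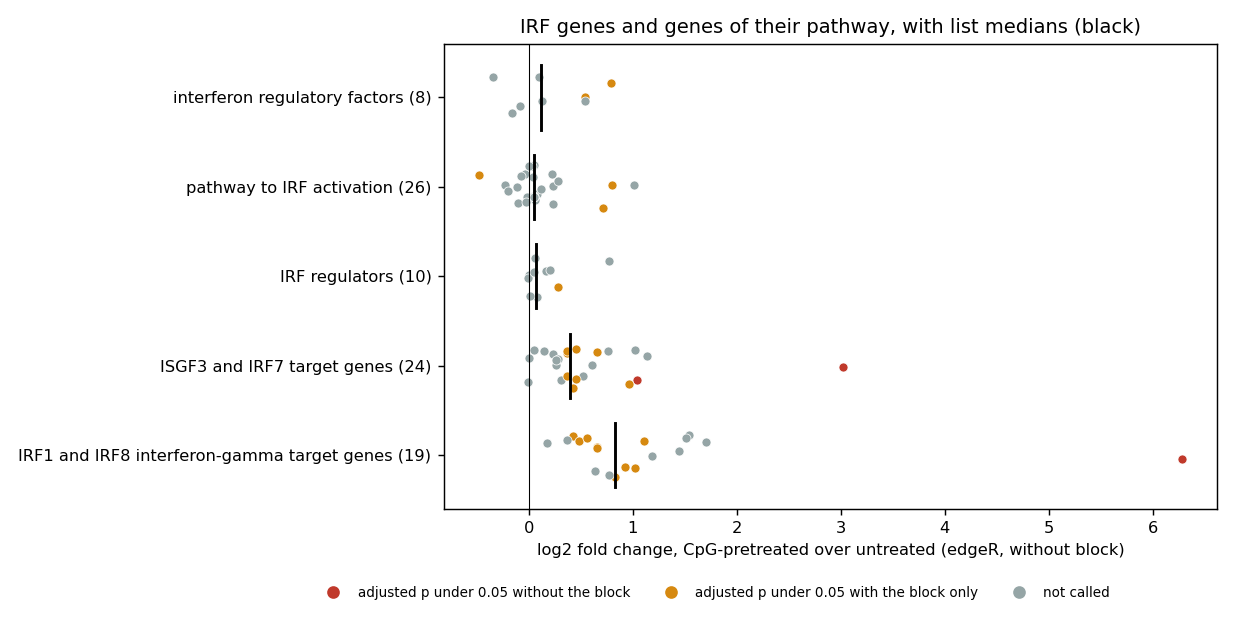
Log2 fold change of CpG-pretreated over untreated cells (horizontal axis, edgeR without the block) of each tested member of the IRF family and of 4 pathway lists, with list medians as black lines and the number tested in parentheses. Medians are 0.12 for the IRFs, 0.05 and 0.07 for the upstream and regulator lists, and 0.40 and 0.83 for the target lists.

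The genes most like each member in these data were taken as the 3 with the highest Pearson correlation of log2 CPM over the 6 libraries, among well-expressed genes with an official symbol. These correlations describe 6 libraries that include the group difference, and no p is given for them. For Irf8 they were Rmdn3, Ank1 and E2f4 (r from 0.994 to 0.998), for Irf4 Rnf41, Flcn and Card6 (0.990 to 0.996), for Irf1 Wdr90, Tjp3 and Stk39 (0.992 to 0.994), and for Irf7 they included Abcf1 and Xaf1 (0.992 to 0.995). For Irf2 they were Crnkl1, Thoc5 and Mapkapk2 (0.963 to 0.993), for Irf3 Rasa4, Trim12a and Zpr1 (0.981 to 0.990), for Irf5 Nostrin, Nxpe4 and Rtl8c (0.989 to 0.995), and for Irf9 Mpp6, Ube2l3 and Lypla1 (0.996 to 0.998). No member was among the 3 genes most like another member.

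Some members overlap other genes, and the labels used here do not state whether counting used strand. In the GENCODE M21 annotation of GRCm38, Irf5 shared 411 of 2905 exonic bases with Tnpo3 on the opposite strand, Irf1 135 of 3976 with Gm17334, Irf3 88 of 3442 with Bcl2l12 and Irf7 45 of 3776 with Phrf1, all on the opposite strand. Irf9 shared 123 of 5386 with Rnf31 on the same strand. Irf2, Irf4 and Irf8 shared none. Under this annotation, reads from bases shared between strands cannot be assigned to one gene if counting did not use strand. Those from the bases shared by Irf9 and Rnf31 cannot with either setting. The deposited gene lengths differ from these exonic totals, with 2688 bases for Irf9, 2392 for Irf5 and 3360 for Irf1. Whether the shared bases were part of the genes as counted is therefore not known.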

How the data were processed

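The authors deposited raw read counts, as whole numbers, for each Entrez gene ID in each of the 6 libraries. The submitters' processing notes name the tools CASAVA and featureCounts and the build mm10. Aligner and strand setting: not given in the sources used here. Each sample's deposited file equalled the series table. Symbols came from RefSeq for GRCm38.p6, the assembly named mm10. Of the IDs, 25275 matched and 1904 did not.

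The fit used edgeR 4.0.16 under R 4.3.3, with filterByExpr (minimum count 10, total 15), TMM normalization, robust dispersions and the quasi-likelihood F test of 3 CpG-pretreated against 3 untreated libraries, two-sided, p-values adjusted by Benjamini-Hochberg across 11602 genes and calls at an adjusted p under 0.05. CPM uses TMM-normalized library sizes, and 1 count is 0.122 to 0.127 CPM. RPKM divides CPM by the deposited gene length. Log2 CPM uses a prior count of 2. Alternatives included limma 3.58.1 and DESeq2 1.42.0.

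Both groups share the numbers 2, 3 and 4. Deviations from the group mean correlated between same-numbered libraries at 0.48, 0.25 and 0.31, all over 0.1. Same-numbered libraries were therefore also treated as pairs, in a second fit with the number as a block. That choice was made from the data and not the labels. The deviations also followed gene length (Spearman correlation), at -0.55 in CpG-pretreated and -0.67 in untreated library 2. The correlation was 0.23 and 0.39 in CpG-pretreated libraries 3 and 4, and 0.53 and 0.49 in untreated ones. The part of this length trend in the pairing, the RPKM levels and the ratios was not tested. The main fit, its fold changes and the permutation tests of the ratios did not use the pairing. Blocked values are given beside those of the main fit where they change a call, and for some other genes. No 2 libraries of a group agreed within sampling noise (chi-square per degree of freedom 3.17 to 19.7).

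The members, lists and tests were chosen with earlier results of these data known. Named genes are all members, list members called with or without the block, and the 3 genes most correlated with each member at an average log2 CPM of at least 3. Tlr9, Tbk1, Spi1, Batf3, the interferon genes and single marker genes were named for their roles, after their values were seen. Some list genes and 1 correlated gene are not reported here.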

Additional observations from a re-analysis of the deposited data

How the results depend on the processing

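No member changed direction under any of the 18 alternatives. Irf2, Irf3, Irf5 and Irf9 were called under none of them. Over the alternatives the log2 fold changes lay between 0.62 and 1.05 for Irf8 and between 0.35 and 0.69 for Irf1. They lay between 0.31 and 0.75 for Irf7 and between -0.54 and -0.26 for Irf4. In the same order, the adjusted p ran from 4.18e-15 to 0.643, 2.57e-08 to 0.484, 6.47e-11 to 0.737 and 1.96e-05 to 0.700. Each of these smallest values came from the block fit without both libraries numbered 4. That fit was added after seeing the data and left out the number with the smallest median change in the members. In the other alternatives the smallest adjusted p was 0.00514 for Irf8, 0.00845 for Irf1, 0.0393 for Irf7 and 0.0442 for Irf4. The cause of the moves below was not tested.

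With the replicate block, 988 genes, 2 members and 25 pathway genes were called, where 113, 0 and 4 were without it. The DESeq2 Wald test called 426 genes, 2 members (Irf1 and Irf8, adjusted p = 0.0436 and 0.0297) and 18 pathway genes, limma-voom 41 genes and 2 pathway genes, and no filter 189 genes. With both libraries numbered 2 left out, 67 genes and 1 pathway gene were called. Leaving out 1 library gave 0 to 386 genes, 0 to 4 members and 0 to 23 pathway genes. The 0 genes came without CpG-pretreated library 2 or 3, where edgeR had 1065 and 1107 at an unadjusted p under 0.05, and the 386 genes and 4 members came without CpG-pretreated library 4. Block fits with both libraries of 1 number left out, added after seeing the data, gave 513, 482 and 1594 genes, 0, 0 and 4 members and 10, 13 and 49 pathway genes without number 2, 3 and 4. The ratio differences kept their sign, at 0.85 to 1.57 for Irf8 to Irf4, 0.24 to 0.60 for Irf1 to Irf2 and 0.61 to 0.80 for Irf7 to Irf3, and a sign-flip test on the 3 pairs gave its smallest p, 0.25, for each. Irf8, the member with the fewest counts, had 301 to 688 per library.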

Other observations

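In the list of 26 genes upstream of the IRFs, 6 did not overlap between the groups. Over all genes tested 18.7% did not in either direction, so the share of the list was near that background. The 6 were Tlr3, Tlr4 and 4 genes of cytosolic nucleic acid sensing, and the 4 sensing genes were not called. All 6 were higher in the CpG-pretreated libraries, a direction in which 9.2% of all genes tested did not overlap. That direction was chosen after the values were seen. Ddx58, which encodes the RNA sensor RIG-I, was at 190 ± 3.76 CPM in CpG-pretreated and 161 ± 11.3 CPM in untreated cells (SD, n = 3 each, edgeR adjusted p = 0.330). Ifih1, encoding the RNA sensor MDA5, was at 213 ± 24.1 CPM in CpG-pretreated and 181 ± 10.7 CPM in untreated cells (edgeR adjusted p = 0.433). Mb21d1, encoding the DNA sensor cGAS, was at 57.5 ± 2.71 CPM in CpG-pretreated and 47.3 ± 3.19 CPM in untreated cells (edgeR adjusted p = 0.263), and Tmem173, encoding its adaptor STING, at 231 ± 7.86 CPM in CpG-pretreated and 198 ± 19.4 CPM in untreated cells (edgeR adjusted p = 0.429). Mavs, encoding the adaptor of the RNA sensors, overlapped between the groups, at 37.5 ± 1.49 CPM in CpG-pretreated and 37.3 ± 4.02 CPM in untreated cells (edgeR adjusted p = 0.992). These genes were chosen after their values were seen.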
